A study of Mus musculus with 4 samples.

Results

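Granule cells are the excitatory neurons of the cerebellum, and their precursors leave the rhombic lip to form the external granule layer. The precursors carry Atoh1, the basic helix-loop-helix transcription factor that specifies the lineage, and divide under Sonic hedgehog made by Purkinje cells; Barhl1 and Pax6 mark the lineage as precursors form and begin to differentiate. The GABAergic neurons of the cerebellum instead come from the ventricular zone, under Ptf1a.

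Cells of this excitatory lineage were sought among sorted cells of the Ptf1a lineage, by a rule on UMIs, the molecules counted with unique barcodes. A barcode counted as a member when it held at least 500 genes, at most 10% mitochondrial UMIs and at least 2 UMIs summed over 4 selection genes, Atoh1, Barhl1, Mfap4 and Barhl2. It also had to hold no UMI of Pax2, a marker of inhibitory interneurons, none of Ptf1a or Kirrel2, which mark Ptf1a progenitors, and at most 1 of the Purkinje genes Foxp2, Calb1 and Skor2. The rule kept 1360 members among 24856 barcodes that passed the limits on genes and mitochondrial UMIs, which were 5.47% of them, and among 35313 barcodes in all. The members were therefore chosen by measured UMIs of these 10 genes, and differences between members and other cells are given as values with no test.

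The libraries came from cerebella of mouse embryos at E15.5, with 10x Genomics 3' chemistry, from cells sorted for the fluorescent protein tdTomato. Control embryos were Ptf1aCre/+; R26LSL-tdT/+, so that Cre made from the Ptf1a locus switched on the reporter in cells that had expressed Ptf1a and in their progeny. En1/2 CKO embryos carried the same Cre and reporter together with homozygous lox alleles of En1 and En2, homeobox genes that pattern the cerebellum, and control and mutant groups therefore share Cre and reporter. Each genotype had 2 libraries, each of pooled embryos whose number is not given, so that p-values measure the spread between pools, and the exons between the lox sites are not given in the sources used here.

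The 4 libraries, called control 1, control 2, mutant 1 and mutant 2 (CKO 1 and CKO 2 in the plots), held between 5305154 and 21021428 UMIs. The limits on genes and mitochondrial UMIs kept 94.6% of the barcodes of control 1 and 25.5% of those of control 2. Members numbered 526, 119, 337 and 378 in the order control 1, control 2, mutant 1 and mutant 2. Their summed UMIs were 817021, 370827, 1638204 and 1313128, and their median depth was 1253, 2800, 4886 and 2198 UMIs. Control 2 gave the fewest members and the smallest sum. Between 10 and 32 barcodes were shared by pairs of libraries, and none of the shared barcodes was a member in both.

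The members were of 2 kinds by the selection gene they carried. Mfap4, which encodes a glycoprotein of microfibrils in the extracellular matrix, was the sole selection gene with a UMI in 718 members, 52.8% of the 1360. The other 642 members held a UMI of at least one of the 3 transcription factor genes. Atoh1 was seen in 419 members, Barhl1 in 488, both in 267, and Barhl2 in 18. Members with Mfap4 alone made up 63.1%, 16.8%, 38.6% and 62.4% of the members of control 1, control 2, mutant 1 and mutant 2. The proportion thus varied as much within a genotype as between genotypes. This division into members with a transcription factor UMI and members with Mfap4 alone was made after the values were seen.

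**Figure D1:**
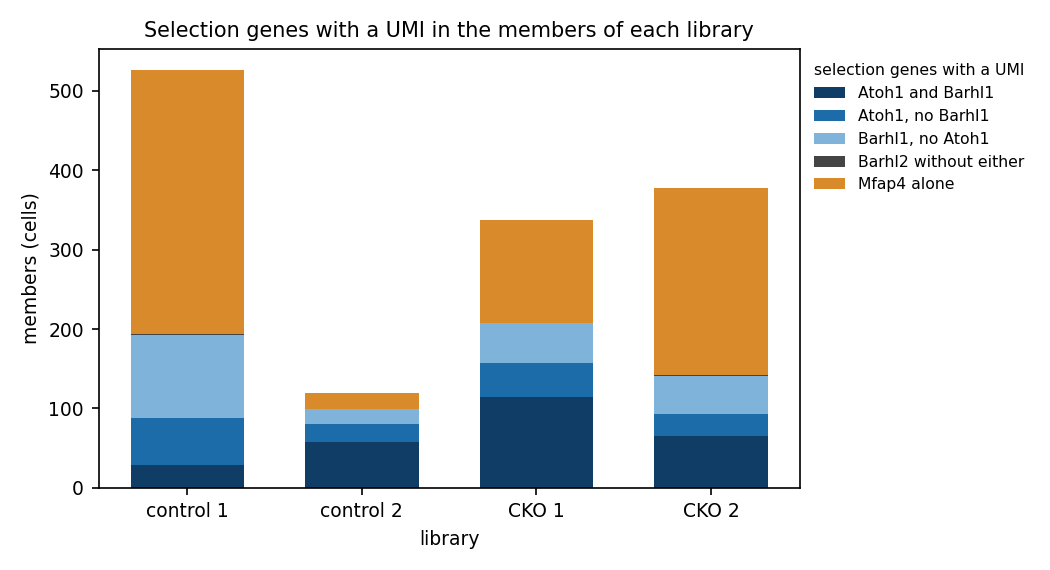
Number of members in each library (y axis, cells) divided by the selection genes with a UMI; each stacked bar is 1 library. Mfap4 alone accounted for 332 of 526 members of control 1 and for 20 of 119 members of control 2.

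The label of granule lineage cells was set beside Pax6 and Nrn1, markers that the rule did not use. Both were named as markers with earlier results of these data known, so their levels are descriptions and no independent check. Levels are in CPM, the UMIs of a gene scaled to all UMIs summed over the cells of a class in a library. Pax6, the paired-domain factor of the lineage, stood at 502, 400, 403 and 377 CPM in members with a transcription factor UMI, in the order control 1, control 2, mutant 1 and mutant 2. In members with Mfap4 alone it stood at 273, 138, 169 and 132 CPM, and in the other kept cells at 115, 96.7, 115 and 106 CPM. The 3 ranges did not overlap, with the members with a transcription factor UMI highest.

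Nrn1 encodes neuritin, a membrane-anchored protein that promotes neurite growth. It measured 312, 147, 242 and 271 CPM in members with a transcription factor UMI, and between 9.90 and 17.0 CPM in other cells. With Mfap4 alone it measured 135, 79.0, 45.4 and 56.6 CPM, below every value of the first class. A Pax6 or Nrn1 UMI was present in 53.6%, 74.7%, 81.2% and 76.1% of members with a transcription factor UMI, against 33.7%, 25%, 33.1% and 29.2% of members with Mfap4 alone. With every cell thinned to 1000 UMIs, and shallower cells left out, the shares were 44.3%, 44.3%, 43.3% and 49.6% against 27.6%, 20%, 15.8% and 17.5%. In microglia, which should lack both genes, 5.94%, 3.12%, 1.59% and 10.5% of cells had such a UMI before thinning.

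Members with Mfap4 alone carried glial genes. Olig1 and Olig2, basic helix-loop-helix genes of the oligodendrocyte lineage, summed with 3 further oligodendrocyte markers to between 851 and 1426 CPM there, against 46.8 to 194 CPM in members with a transcription factor UMI and 162 to 362 CPM in other cells. The 12 radial progenitor markers, among them Fabp7, Sox2 and Slc1a3, summed to between 8706 and 26711 CPM with Mfap4 alone and to between 2898 and 4421 CPM with a transcription factor UMI. At least 2 UMIs of Olig1 and Olig2 together were found in 15.1%, 30%, 45.4% and 33.1% of members with Mfap4 alone. The corresponding shares were 1.03%, 2.02%, 2.90% and 6.34% of members with a transcription factor UMI.

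Against the other kept cells, 32 of 3877 genes at 50 CPM or more, or 0.825%, were at least 2-fold higher with Mfap4 alone in 4 of 4 libraries (10 CPM added to both sides), and 48 of 3822, or 1.26%, lower. Leaving out the rule's genes, the members with Mfap4 alone were led over other cells by Col3a1 and Col1a2, collagens of fibroblasts, and then by Olig2, by Mfge8, a secreted glycoprotein, and by Olig1, Rlbp1, a retinaldehyde-binding protein of glia, and Aldoc, the aldolase of astroglia. The collagen lead rested on few cells. With Mfap4 alone Col3a1 had 34, 11, 67 and 53 UMIs in all. Over all members, whichever selection gene they carried, it had 30 of 37 UMIs in 1 member of control 1 and 11 of 12 in 1 member of control 2, and 2 members held 67 of 68 and 53 of 54 in mutant 1 and mutant 2. Olig1 was spread more widely, with a UMI in 73, 15, 74 and 118 of all members and with 311, 34, 483 and 627 of its UMIs in those with Mfap4 alone. Set against members with Mfap4 alone, those with a transcription factor UMI were 2-fold higher in 4 of 4 libraries for 15 of 3575 genes, or 0.42%, led by Cadps2, Btbd11 and Insm1, and lower for 153 of 3877, or 3.95%, among them Mfge8 and Plpp3. Without control 1 these counts were 59 and 260, and without control 2, which had 20 members with Mfap4 alone, 28 and 178. Mfge8 stood at 58.1, 50, 62.9 and 106 CPM with a transcription factor UMI and at 779, 672, 882 and 1104 CPM with Mfap4 alone. The leading genes of members with Mfap4 alone thus go against a granule lineage name for them. They are called below by their rule, and the 642 members with a transcription factor UMI are those for which Pax6 and Nrn1 match the label.

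**Figure D2:**
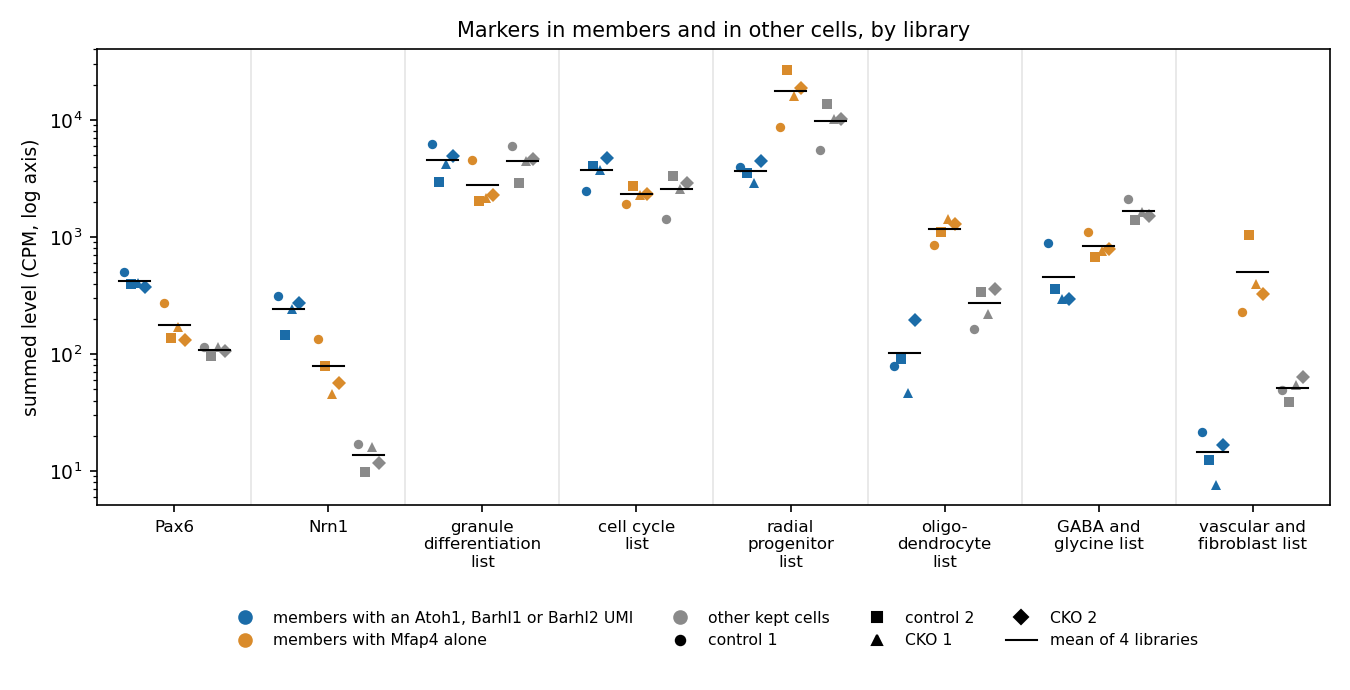
Levels of Pax6 and Nrn1 and summed levels of 6 marker lists (y axis, CPM, log scale) in 3 classes of cells; each point is 1 library and each bar the mean of the 4 libraries. Members with Mfap4 alone reached 851 to 1426 CPM for the oligodendrocyte list, above every library of the other classes.

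The threshold of 2 UMIs passed through a gradual range. The 466 members at exactly 2 UMIs of the selection genes had Pax6 at 178, 284, 211 and 140 CPM and Nrn1 at 119, 88.8, 75.0 and 53.7 CPM. Barcodes that met the other conditions with 1 UMI numbered 784, 81, 302 and 623. Their Pax6 was at 156, 140, 116 and 132 CPM and their Nrn1 at 40.0, 60.2, 17.3 and 8.59 CPM.

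The background of the selection genes was read in microglia, which should lack them. An Atoh1 UMI was found in 0 of 101, 1 of 64, 0 of 63 and 4 of 247 microglia, and a Barhl1 UMI in 1 of 101, 2 of 64, 0 of 63 and 4 of 247. A Mfap4 UMI was found in 3 of 101, 1 of 64, 2 of 63 and 27 of 247 microglia, which in mutant 2 was 10.9% of them, and in 13.2% to 15.2% of other cells. The background of Mfap4, the sole selection gene of most members, was thus higher than that of Atoh1 and Barhl1 in mutant 2. The median depth of these microglia was 3327, 3410.5, 4396 and 2949 UMIs. The reporter TdTom stood at 422, 575, 467 and 599 CPM in members with a transcription factor UMI and at 458, 673, 492 and 601 CPM in other cells. Microglia, which do not arise from the neural tube, had 438 to 1187 CPM, so the level of TdTom did not set the members apart. How the members entered the sort was not tested.

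The genes of the rule took these levels in the members with a transcription factor UMI. Atoh1 (chromosome 6:64729125-64731245, plus strand, GRCm38) stood at 358, 540, 419 and 340 CPM, and Barhl1 (chromosome 2:28907679-28916668, minus strand), a homeobox gene of the lineage, at 612, 425, 431 and 403 CPM. Mfap4 (chromosome 11:61485431-61488900, plus strand) stood at 2445, 1327, 963 and 982 CPM, and the controls were above both mutants. Barhl2, the paralog of Barhl1, stayed at or under 13.6 CPM in each library. These levels are set in part by the rule and are descriptions.

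Promoters of genes that stood high together are shown here because E boxes, the sites that basic helix-loop-helix factors such as Atoh1 bind, have the form CANNTG. The form searched, CAGCTG, is its own reverse complement, so that 1 search covers both strands; it was chosen after the first 2 sequences below had been seen. The capitals mark CAGCTG, and each sequence is a promoter window of 250 bases, 5' to 3' on the gene's strand, from RefSeq on build GRCm38.p6. Its end need not be the start of the whole gene.
Barhl1: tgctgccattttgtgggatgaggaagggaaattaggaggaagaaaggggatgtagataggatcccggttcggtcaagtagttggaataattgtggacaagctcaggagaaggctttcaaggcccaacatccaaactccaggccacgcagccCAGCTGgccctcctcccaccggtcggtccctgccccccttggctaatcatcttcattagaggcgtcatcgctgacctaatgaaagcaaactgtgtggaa
Thsd7b: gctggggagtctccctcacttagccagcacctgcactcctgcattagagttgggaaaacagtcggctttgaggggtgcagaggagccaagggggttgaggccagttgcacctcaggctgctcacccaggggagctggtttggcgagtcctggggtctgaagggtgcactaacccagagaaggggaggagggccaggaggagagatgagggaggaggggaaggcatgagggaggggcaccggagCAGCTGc
Nkd1: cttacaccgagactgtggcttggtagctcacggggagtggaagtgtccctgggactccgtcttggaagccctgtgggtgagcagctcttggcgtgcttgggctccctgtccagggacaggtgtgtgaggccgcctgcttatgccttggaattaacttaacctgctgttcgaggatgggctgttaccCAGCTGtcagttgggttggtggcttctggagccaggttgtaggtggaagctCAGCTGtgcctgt
Scrn1: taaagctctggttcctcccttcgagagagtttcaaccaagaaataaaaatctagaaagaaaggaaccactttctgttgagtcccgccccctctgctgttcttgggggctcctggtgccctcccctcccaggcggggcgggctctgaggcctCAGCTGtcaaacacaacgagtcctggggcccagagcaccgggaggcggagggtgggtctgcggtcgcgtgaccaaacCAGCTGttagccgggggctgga

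The sequences lie at chr2:28916669-28916918 on the minus strand, chr1:129273054-129273303 on the plus strand, chr8:88527383-88527632 on the plus strand and chr6:54566383-54566632 on the minus strand. In GENCODE coordinates Nkd1 spans 88521354-88594884, so its window lies inside the gene. The window of Scrn1 overlaps its gene (54501173-54566489), and that of Thsd7b does so at its last bases. Of the 20 genes that led the members with a transcription factor UMI, described next, 15 had an entry in the promoter table, and 7 of these, 46.7%, held CAGCTG in this window of at least one promoter. They were Thsd7b, Sema7a, Carnmt1, Robo2, Nkd1, Scrn1 and Rab15. Over the whole table the share was 14.7% among 27025 genes and 13% among 32851 promoters. Both promoters of Barhl1 held it, and those of Atoh1 and Pax6 did not. The form was chosen with the Thsd7b sequence seen, and Thsd7b is among the 7, so these shares are no test of enrichment. Every sequence shown was taken from carriers. Epha5, Hs3st5, Btbd11, Igsf21, Gm38534, Sstr2, Cadps2 and Ppp2r2c did not hold CAGCTG. Robo2 and Rab15 had several promoters and held it in some of them only. A match is a description of letters and shows no binding.

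Against the other kept cells of the same library, the members as a whole were at least 2-fold higher in 4 of 4 libraries for 32 of 3676 genes at 50 CPM or more, or 0.871% (10 CPM added to both sides). They were at least 2-fold lower for 57 of 3822 genes, or 1.49%. Among members with a transcription factor UMI, 63 genes or 1.76% were higher and 113 or 2.96% lower by the same measure. The rule used this contrast, so these counts are descriptions.

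The 20 leading genes of the members with a transcription factor UMI, by the smallest of their 4 ratios, were headed by Nrn1, which also headed the members as a whole; there Lingo1, Selenom, Kcnk1 and Pvalb stood in the place of Sema7a, Cadps2, Scrn1 and Ppp2r2c. After Nrn1 came Thsd7b (chromosome 1:129273302-130219278), at 315, 169, 157 and 136 CPM against 5.33 to 14.5 CPM in other cells. Hs3st5, a heparan sulphate sulphotransferase, stood at 303, 106, 118 and 102 CPM against 6.86 to 21.1 CPM. Fst, which encodes follistatin, a secreted antagonist of activin, stood at 266, 256, 165 and 117 CPM against 9.92 to 20.2 CPM. For each of these genes the lowest library of the members lay above the highest of the other cells.

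Epha5, an Eph receptor for ephrin-A ligands, was the most abundant of the 20, at 1861, 784, 838 and 862 CPM against 123 to 165 CPM. Hsd11b2, the enzyme that inactivates glucocorticoids, stood at 548, 265, 333 and 291 CPM against 21.0 to 82.4 CPM.

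The remaining leaders had log2 ratios of at least 1.86 in each library. They included Robo2, a receptor for Slit, Sema7a, a membrane-anchored semaphorin, Igsf21, an adhesion molecule of synapses, and Gsg1l, an auxiliary subunit of AMPA receptors. Cadps2, which primes dense-core vesicles, Sstr2, a somatostatin receptor, Rab15 and Scrn1, both of membrane traffic, and Nkd1, a feedback inhibitor of Wnt signalling, were also among them. Carnmt1, Btbd11, Gm38534 and Ppp2r2c were among them as well.

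**Figure D3:**
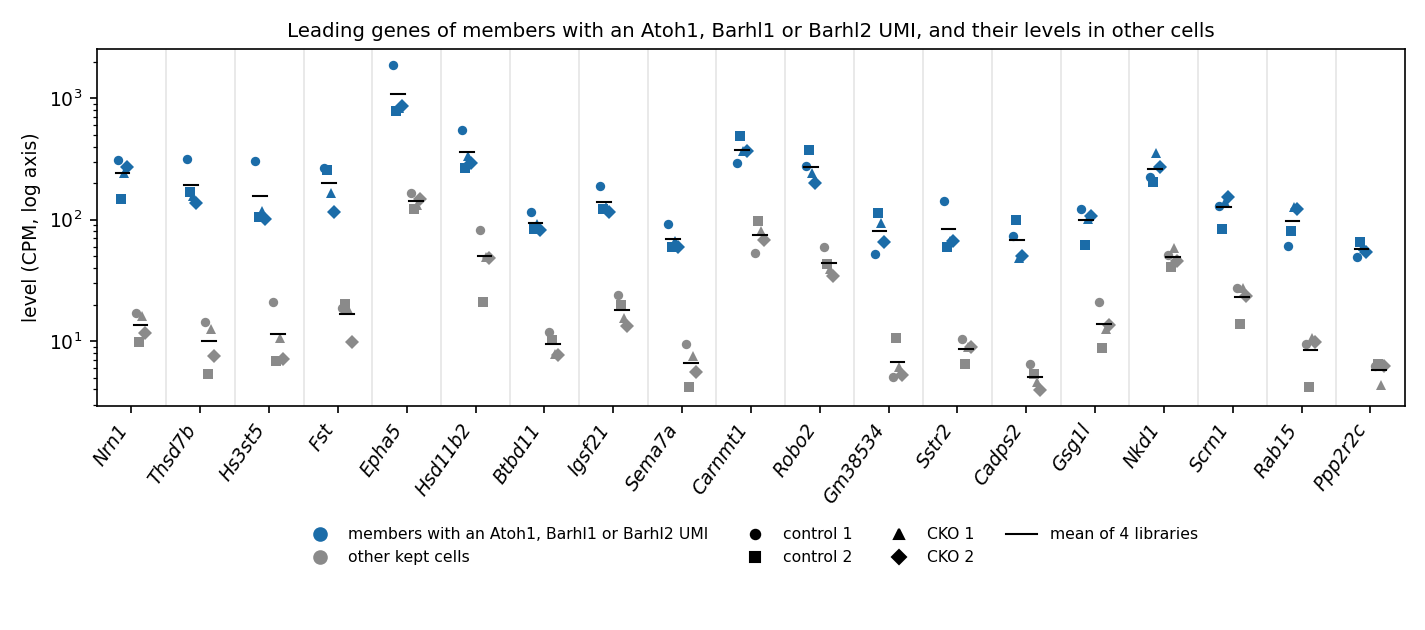
Levels (y axis, CPM, log scale) of leading genes in members with a transcription factor UMI and in other kept cells; each point is 1 library and each bar the mean of 4. For Nrn1 the members lay between 147 and 312 CPM and the other cells between 9.90 and 17.0 CPM.

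Markers of inhibitory neurons and of microglia were lower in these members. The rule kept barcodes with Pax2, Ptf1a or Kirrel2 UMIs, or with more Purkinje UMIs, out of the members but not out of the other cells. The direction for inhibitory markers was therefore set in part by the rule. Nrxn3, a presynaptic adhesion gene, stood at 226, 71.8, 51.0 and 51.5 CPM in members with a transcription factor UMI and at 1512, 612, 569 and 618 CPM in other cells. Of 9 GABA and glycine markers at 50 CPM or more, 9 were lower in 4 of 4 libraries, 8 of them at least 2-fold. They included Slc32a1, the vesicular transporter of GABA and glycine, at 70.4, 21.9, 4.25 and 13.6 CPM against 106 to 347 CPM, and Gad1, which makes GABA. The 8 microglia markers at that level, among them the complement genes C1qa, C1qb and C1qc, were all at least 2-fold lower in each library; their list summed to 30.6, 12.5, 2.55 and 78.8 CPM in members with a transcription factor UMI and to 398 to 1662 CPM in other cells.

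Lists of granule lineage genes, chosen with earlier results of these data known, gave a mixed picture. Of 20 granule regulators, 6 were higher in 4 of 4 libraries in members with a transcription factor UMI than in other cells, namely Pax6, Insm1, Nfia, Meis1, Mycn and Zic5, and 10 were lower. Over all 4139 genes at 50 CPM in either class, 1018 were higher in 4 of 4 libraries and 1195 lower. Insm1, a zinc-finger factor of dividing neuronal progenitors, stood at 272, 821, 395 and 341 CPM against 74.9 to 192 CPM. Neurod1, a neuronal differentiation factor, stood at 248, 194, 210 and 196 CPM against 237 to 300 CPM, and so was not set apart from the other cells, which share it.

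Of 14 granule differentiation genes at that level, 5 were higher and 6 lower, the latter being Chgb, Tubb3, Mapt, Nrcam, Cntn1 and Dcx. The higher ones were Snap25 and Syt1, of synaptic vesicle release, Reln, the secreted guide of neuronal migration, Nrn1, and Gap43, a growth cone protein at 477 to 658 CPM against 102 to 147 CPM. Among guidance genes, Cxcr4, the receptor for Cxcl12 that holds precursors at the surface, stood at 91.8, 71.8, 63.0 and 44.0 CPM against 18.7 to 27.0 CPM. Robo3, of migrating interneurons and of commissural axons, was lower, at 15.2 to 76.5 CPM against 123 to 526 CPM.

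The response to Sonic hedgehog was measured with 15 genes, of which 7 reached 50 CPM. Smo, the transducer, Ccnd1, which drives entry into the cell cycle, Mycn, Gas1, a co-receptor, and Sfrp1 were higher in 4 of 4 libraries, and Ccnd2 and Ptch1 lower. Ccnd1 stood at 129, 197, 254 and 271 CPM against 47.3 to 82.0 CPM. The direct targets were low: Ptch1 stood at 35.7 to 45.9 CPM against 55.3 to 99.8 CPM in other cells, and Gli1 at 0 to 3.12 CPM against 4.69 to 6.30 CPM. Of 7 Notch pathway genes, Hes6, which counters Hes1, and Hey1 were higher and Notch1, Hes1 and Hes5 lower.

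Cell cycle genes stood higher in members with a transcription factor UMI for 17 of 21 genes in 4 of 4 libraries, and lower for none of the 21, against 1018 and 1195 of 4139 genes. Mcm6, of the replicative helicase, stood at 132, 209, 186 and 123 CPM against 51.5 to 80.7 CPM. The whole list of 26 summed to 2469, 4004, 3753 and 4733 CPM against 1435, 3325, 2563 and 2898 CPM in other cells. A Mki67 or Top2a UMI was present in 14.9%, 34.3%, 29.5% and 35.9% of members with a transcription factor UMI, against 10.9%, 23.8%, 17.5% and 17.9% of other cells. After thinning to 1000 UMIs the shares were 12.1%, 19.6%, 14.9% and 15.7% against 9.02%, 15.4%, 12.1% and 15.4%. The ranges overlapped before and after thinning, and the members lay higher within each of the 4 libraries both times, in mutant 2 by little after thinning.

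The defining markers of other excitatory types were low. In members with a transcription factor UMI, Slc17a6, the glutamate transporter of nuclear neurons, stood at 0 to 9.18 CPM and Tbr1 at 0 in each library. Eomes, of unipolar brush cells, stood at 3.12 to 15.3 CPM. Slc17a7, the transporter of mature granule cells, stood at 0 to 4.55 CPM. Other genes of the same lists were not near 0. Wls, a transporter of Wnt proteins made in the rhombic lip and in the unipolar brush cell list, stood at 67.3, 50, 74.9 and 36.4 CPM, against 72.0 to 103 CPM in other cells and 20.6 to 42.9 CPM in Pax2 interneurons, and was higher than in the interneurons in 4 of 4 libraries. Otx2, of the same list, stood at 15.3, 25.0, 85.9 and 25.8 CPM.

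Members with an Atoh1 UMI were compared with the members that had none, as a description with no test. They were at least 2-fold higher in 4 of 4 libraries for 9 of 3571 genes, or 0.252%, and lower for 88 of 3770, or 2.33%. The members without Atoh1 include those with Mfap4 alone, and the genes lower with Atoh1 included Plpp3 and Mfge8, which led them with Col3a1. The 9 higher genes were led by Pvalb, C230057M02Rik and Rab15.

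A closer contrast set the 419 members with an Atoh1 UMI against the 221 with Barhl1 and no Atoh1 UMI. Part of the cell cycle list stood higher with Atoh1, and much of the differentiation list stood higher with Barhl1 and no Atoh1, called Barhl1 alone below. At least 2-fold higher with Atoh1 in 4 of 4 libraries was 1 of 3571 genes, or 0.028%, and lower were 10 of 3578, or 0.279%. Without control 1 these became 6 and 26, and without another library 2 to 3 and 12 to 15.

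Pvalb, which encodes the calcium buffer parvalbumin, was the single gene 2-fold higher with Atoh1, at 710, 776, 1150 and 1119 CPM against 238, 376, 356 and 293 CPM. Hes6 stood at 615, 590, 877 and 729 CPM against 363, 394, 521 and 378 CPM. Mycl, a Myc family gene, stood at 165, 189, 193 and 179 CPM against 77.3, 89.4, 103 and 117 CPM. For these 3 genes the ranges did not overlap.

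Gap43 lay on the other side, at 292, 458, 321 and 426 CPM with Atoh1 and 654, 1288, 1766 and 1241 CPM with Barhl1 alone. Stmn2, a regulator of microtubules in growing axons, stood at 1033, 348, 488 and 686 CPM against 1904, 912, 2573 and 2290 CPM. Cdkn1a, the cyclin-dependent kinase inhibitor p21, stood at 0, 7.57, 9.64 and 6.39 CPM against 29.7, 53.7, 66.2 and 112 CPM. These values rested on at most 9 UMIs in a library with Atoh1 and on 5, 3, 16 and 21 UMIs with Barhl1 alone. The class with Barhl1 alone held 105, 18, 50 and 48 cells. Gap43 and Cdkn1a did not overlap between the classes, and Stmn2 overlapped between libraries but lay higher with Barhl1 alone within each.

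Of the granule differentiation list, 7 of 14 genes were lower with Atoh1 in 4 of 4 libraries and 0 higher, among them Tubb3, Reln, Dcx and Cntn1. Neurod1 stood at 190, 144, 119 and 93.8 CPM with Atoh1 against 303, 429, 563 and 447 CPM. Of 22 cell cycle genes, 6 were higher with Atoh1 and 0 lower, namely Pcna, Mcm7, Mcm2, Mcm5, Birc5 and Rrm2. Over all 3948 genes at 50 CPM, 509 were higher and 456 lower. Median depth was 1367.5, 2992, 5682 and 4963 UMIs with Atoh1 and 1287, 2646, 4443 and 3245.5 UMIs with Barhl1 alone, and the part of depth in the split was not tested.

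**Figure D4:**
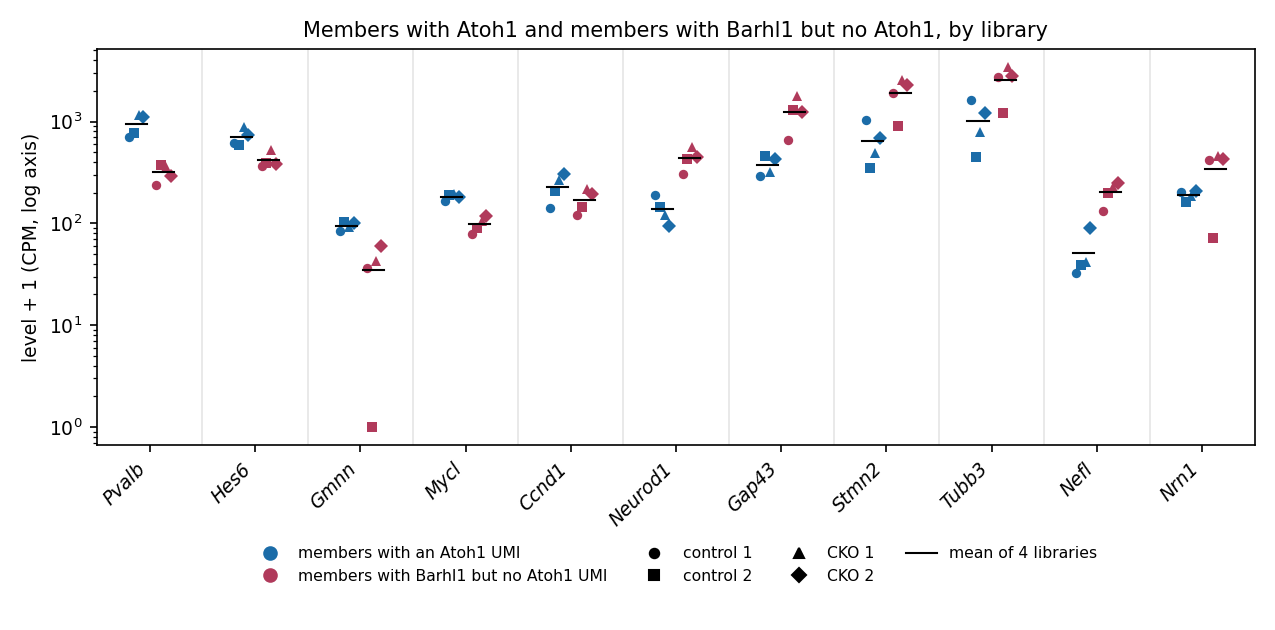
Levels plus 1 (y axis, CPM, log scale) of genes named for the split in members with an Atoh1 UMI and in members with Barhl1 but no Atoh1 UMI; each point is 1 library and each bar the mean of 4. Gap43 lay at 292 to 458 CPM with Atoh1 and at 654 to 1766 CPM with Barhl1 alone.

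Interneurons of the ventricular zone were taken as the 1795 cells of the same libraries that carried Pax2. Epha5, Nrn1 and Thsd7b led the members with a transcription factor UMI over these interneurons, and Nrxn3, Robo3 and Sst, which encodes somatostatin, led the interneurons. At least 2-fold higher in 4 of 4 libraries were 126 of 3575 genes, or 3.52%, and lower 159 of 3667, or 4.34%. Of 21 cell cycle genes, 16 were higher in the members in 4 of 4 libraries at any size and 0 lower, against 1138 higher and 1274 lower of all 4179 genes. A comparison with Slc17a6 neurons was not made, as 16 such cells were found in all.

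The share of members was compared between genotypes over libraries. It was 5.06% (95% exact interval 4.64 to 5.50) in control 1, 10.1% (8.45 to 12) in control 2, 6.44% (5.79 to 7.14) in mutant 1 and 4.70% (4.25 to 5.19) in mutant 2, where intervals cover counting error. The controls averaged 7.58% ± 3.57 (SD, n = 2) and the mutants 5.57% ± 1.23 (SD, n = 2), and the groups overlapped. The exact 2-sided permutation test gave p = 0.667, and with 2 libraries a group it cannot go below 0.333. Without control 2 the difference changed sign, from -2.02 to 0.512 percentage points. With members with Mfap4 alone left out of both counts, those with a transcription factor UMI were 194 of 10070, 99 of 1157, 207 of 5106 and 142 of 7805 cells, or 1.93%, 8.56%, 4.05% and 1.82%. Control 2 was again the highest library and the groups overlapped, at 5.24% ± 4.69 (SD, n = 2) and 2.94% ± 1.58 (SD, n = 2), with p = 0.667 in the exact permutation test.

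En1 and En2 were examined first as a check of the labels. En2 in the members stood at 61.2, 27.0, 22.0 and 11.4 CPM, from 50, 10, 36 and 15 UMIs. En1 stood at 68.5, 37.8, 26.9 and 22.8 CPM. Both mutants lay below both controls for each gene, but neither passed the threshold of edgeR's quasi-likelihood test (En2 log2 change -1.46, SE 0.48, adjusted p = 0.975; En1 -1.15, SE 0.36, adjusted p = 0.975). In other cells En2 stood at 103, 51.0, 31.1 and 15.9 CPM and En1 at 112, 82.3, 73.3 and 65.6 CPM. Whether the 3' ends counted lie in the deleted part is not known, so reads left in the mutants are not evidence of cells without recombination.

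By genotype, 0 of 9557 genes tested in the members passed an adjusted p of 0.05 in edgeR, or 0%. At an unadjusted p under 0.05 there were 387. DESeq2 called 2, Ttr and Gm10076, both named after their values were seen. With members that had a transcription factor UMI alone, edgeR called 1 of 6961 genes, Ttr, or 0.0144%.

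Ttr, the transthyretin gene of choroid plexus epithelium, stood at 2.45, 0, 13424 and 5704 CPM in the members of control 1, control 2, mutant 1 and mutant 2. Other cells stood at 13.4, 5.33, 12627 and 3717 CPM, so that both classes were high in the mutants. The mutant UMIs of the members sat in few cells. In mutant 1, 7 of 337 members held 21933 of 21992 Ttr UMIs, and in mutant 2, 5 of 378 held 7459 of 7490. The 7 cells had a median depth of 13596 UMIs against 4886 for the members of that library, and 7 of 7 carried Folr1, another choroid plexus gene, as did 2 of the 5. Among other cells, 74 and 104 held at least 10 Ttr UMIs in the mutants, and 2 and 0 in the controls.

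Since the controls held 2 Ttr UMIs in all, no fold change is given; edgeR's adjusted p was 0.141 in the members and 0.0288 in those with a transcription factor UMI. Without cells at 10 or more Ttr UMIs the adjusted p in the members was 0.977 and 0 genes were called. Of the 5 choroid plexus markers, 3 were tested in the members, and 3 had an unadjusted p under 0.05. Clu, Calml4, Trpm3, Sostdc1 and Fxyd1, also named for small unadjusted p, had 23.4% to 94.3% of their mutant UMIs in members with at least 10 UMIs of the gene, 1 to 7 such members a library.

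Other genes were spread over more cells. Cwc22 (chromosome 2:77881159-77946375), a splicing factor gene, had a UMI in 31, 3, 141 and 96 members, at 40.4, 10.8, 174 and 123 CPM (log2 change 2.39, SE 0.48, edgeR adjusted p = 0.975). Other cells had 44.0, 16.4, 176 and 104 CPM, in the same order of libraries. Lower in both mutants were Pianp (29.4, 13.5, 2.44 and 2.28 CPM; 24, 5, 4 and 3 UMIs), 1500004A13Rik (73.4, 40.5, 15.9 and 16.8 CPM) and Chrna3, a nicotinic receptor subunit (66.1, 35.1, 16.5 and 15.2 CPM). Cadps, which primes dense-core vesicles for release, stood at 49.0, 45.8, 14.7 and 15.2 CPM. Each had an adjusted p of 0.975, so none of these differences passed the test.

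**Figure D5:**
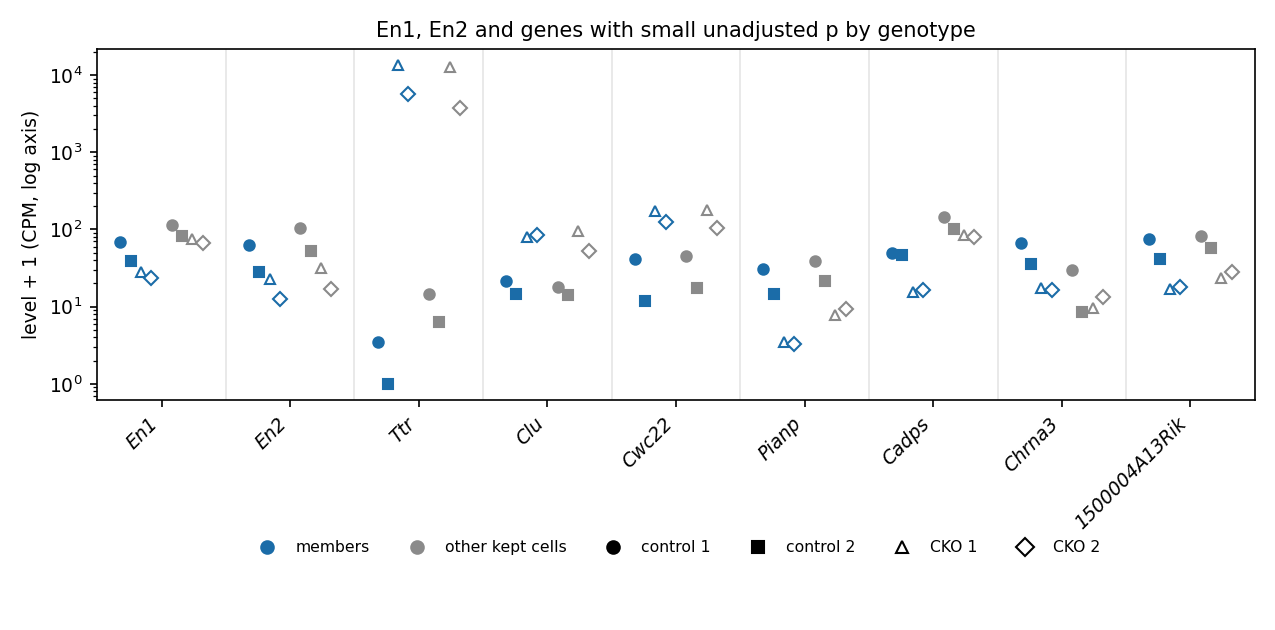
Levels plus 1 (y axis, CPM, log scale) of En1, En2 and genes with small unadjusted p in members and in other kept cells; filled points are controls and open points mutants, 1 point a library. Ttr stood at 13424 and 5704 CPM in the mutant members and at 2.45 and 0 CPM in the controls.

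Lists by genotype had no member past the threshold in the members. Of 20 granule regulators tested, 16 had a negative fitted change and 4 a positive one, with a median log2 change of -0.42, against -0.05 over all 9553 genes outside the rule, of which 5232 were negative and 4321 positive. Of 26 cell cycle genes, 18 had a positive value, with a median of 0.27. In members with a transcription factor UMI, 18 of 20 granule regulators were negative and 2 positive. Their median was -0.37, against -0.04 over all 6958 genes. There 20 of 26 cell cycle genes were positive, with a median of 0.33. In all members, the 9 GABA and glycine markers tested had a median of -0.99, 8 of them negative, in cells chosen for low levels of that lineage. In members with a transcription factor UMI, 6 markers of this list were tested and 6 were negative, with a median of -1.74. Of these, 5 had an unadjusted p under 0.05 in edgeR and 0 passed the threshold. The list summed to 884, 356, 295 and 297 CPM in members with a transcription factor UMI, and control 1 was the highest library for it. Erythroid genes summed to 1995, 59.3, 390 and 429 CPM there and to 55.6 to 4441 CPM in other cells, and the part of such RNA in the differences between libraries was not tested.

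The difference between the effect of genotype in members and in other cells was tested for 11900 genes, and 0, or 0%, passed in edgeR, with 468 at an unadjusted p under 0.05; DESeq2 called 0. With members that had a transcription factor UMI, edgeR called 0 of 11653, or 0%. The 6 genes with the smallest p and both mutants beyond both controls included Ttr, Ppm1l, Igfbp5, Enpp2 and Nos1ap. Of the Enpp2 UMIs in the members of mutant 1, 67 of 100 sat in 4 cells. In mutant 2, 33 of 45 sat in 2 cells, and all of these cells carried Folr1. Igfbp5, which binds insulin-like growth factors, stood at 173, 151, 103 and 107 CPM in the members and at 301, 173, 89.4 and 87.9 CPM in other cells, lower in the mutants in both. Nos1ap stood at 34.3, 32.4, 15.9 and 18.3 CPM in the members and at 27.3, 16, 33.6 and 32.5 CPM in other cells, so that the values ran in opposite directions, with an adjusted p of 1. Igfbp5 and Nos1ap lie on chromosome 1 with En1. For such genes the lox alleles and DNA linked to them cannot be told apart.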

How the data were processed

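The files deposited by the authors hold UMI counts for each gene and barcode, made with Cell Ranger 6.1.0 against mm10 per the submitters' processing notes, and with a TdTom sequence added; the counts cover 32286 genes and carry no normalisation. Whether intron reads were counted is not given in the sources used here. The barcode and gene files gave the order of the matrices. The members and the gene lists were chosen with earlier results of these data known.

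UMIs were summed per library and class (CPM: scaled to all UMIs of that sum). Genotypes were compared with edgeR 4.0.16 (R 4.3.3; TMM, filterByExpr, quasi-likelihood F test, Benjamini-Hochberg, threshold 0.05), and members with other cells by an interaction term, with libraries as blocks. SEs were derived from the F statistic. Shares used exact permutation tests and exact Clopper-Pearson intervals (95%), which cover counting error alone, as does the floor of 3 counts. Scores from Scrublet (scanpy 1.11.5) were used in 1 alternative, and doublets were otherwise kept. The highest 0.8% of scores per 1000 barcodes, as taken there, held 9.51%, 3.36%, 5.04% and 4.50% of members. Scripts were tested on simulated data.

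Named were the rule's genes, En1 and En2, the 20 genes with the largest smallest ratio against other cells and the 10 lowest, the 12 genes with the smallest p by genotype and 6 by interaction with at least 20 CPM and both mutants beyond both controls, and list members. The rule on ratios was applied likewise to members with a transcription factor UMI, a class made after values were seen. Genes named in the contrast of Atoh1 with Barhl1, and thresholds per cell, were chosen after values were seen. Coordinates are from GENCODE on GRCm38. Replicate numbers were not taken to pair libraries. A few genes that these rules pick are not reported here, and the plots leave them out.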

Additional observations from a re-analysis of the deposited data

How the results depend on the processing

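The call of 0 genes by genotype became 2 with DESeq2, 46 with no filter on low counts, 1 each with the stricter cell filter, Mfap4 not counted, cells of at least 2000 UMIs and members with a transcription factor UMI, and 3 with Mfap4 alone. It was 0 with RLE factors, thinning, doublets removed, 3 selection UMIs and Ttr-rich cells left out. Leaving out a library gave 1 to 476 calls (146 without control 1, 476 without control 2, 5 without mutant 1 and 1 without mutant 2), where a genotype's single library is taken to vary as the libraries of the other genotype do.

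The count of 0 by interaction became 11 with no filter on low counts, 4 with the stricter cell filter, 6 with Mfap4 not counted, 2 at 2000 UMIs and 32 with Mfap4 alone, and 0 to 60 without a library (60 without control 1, 35 without control 2 and 9 without mutant 1). The En2 interaction changed sign with Mfap4 alone, to -0.24.

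The difference in share changed sign under the stricter cell filter (2.30 percentage points), with Mfap4 alone (0.233) and without control 2, ranging from -4.54 to 0.512 over libraries left out. Under the stricter cell filter both mutants (8.97% and 8.21%) lay above both controls (6.06% and 6.52%). With cells thinned to 1000 UMIs, both controls (4.38% and 7.69%) lay above both mutants (3.73% and 3.45%). The exact permutation test gave p = 0.333 for each of these settings, the smallest it can give. Genes 2-fold higher in members than in other cells numbered 53 at 3 UMIs, 72 with Mfap4 not counted and 63 with a transcription factor UMI, and 33 to 45 without a library. The 9 genes higher with Atoh1 became 15 in the split by any transcription factor UMI and 1 against Barhl1 without Atoh1, and 9 to 19 without a library (19 without control 1). The causes were not tested.

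The replicate block gave 11 calls and a crossed pairing 25; the same-numbered libraries deviated with a correlation of -0.277 over 9557 genes. The alternatives on transcription factor UMIs, Mfap4 alone, Ttr, crossing, and all those of the descriptions were chosen after seeing the data. The members' UMIs summed to between 370827 and 1638204 a library. Beyond the thinning given above, the part of depth in these counts was not tested.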
